A study of Mus musculus with 3 samples.

Results

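The 7 miRNA features described here belong to the miR-125 family (mmu-miR-125a-5p, mmu-miR-125b-5p, mmu-miR-125b-1-3p and mmu-miR-125b-2-3p) and the miR-99/100 family (mmu-miR-99a-5p, mmu-miR-99b-5p and mmu-miR-100-5p). They were chosen by name, as products of 3 related gene clusters, and all 7 are among the 1079 mouse miRNAs of the array. Their signals were read in matrix vesicles (MVs) that MC3T3-E1 cells deposit in the extracellular matrix. MC3T3-E1 is an established osteoblastic cell line derived from mouse calvaria. MVs were released with 500 units/mL collagenase when osteoid-like nodules had formed, and were collected by ultracentrifugation in 3 independent isolations, each read on 1 array from 100 ng of total RNA. All 3 arrays form 1 group (n = 3) of wild-type line cells, with no treatments to compare. According to the methods, all cultures were grown in osteogenic medium, which contains ascorbic acid. The labels state that β-glycerophosphate was in the medium, whereas according to the methods the cultures used for MVs lacked it. No array of the parent cells was analysed here, so no level in MVs is set against a level in cells.

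miRNAs silence mRNAs that pair with their seed, so miRNAs with the same seed can share targets. The miR-125 family is the vertebrate counterpart of lin-4, a regulator of developmental timing first described in nematodes, and its members act in differentiation of many lineages, blood and bone cells among them. The miR-99/100 family is known for targeting Mtor, the kinase of a growth pathway. Both families lie together with a let-7 gene in clusters that are conserved across animals, and from each hairpin the 5p or the 3p arm, or both, can be kept as the mature miRNA.

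The mature sequences are shown because they decide which members share a seed and how far near-identical members can be told apart. They were taken from RefSeq (GRCm38.p6) and are written from the 5′ end, with the seed (bases 2 to 8) in capitals. All 7 members were matched by name, as were 867 of the 1079 mouse miRNAs.
miR-125b-5p: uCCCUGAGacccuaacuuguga
miR-125a-5p: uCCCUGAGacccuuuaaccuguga
miR-99a-5p: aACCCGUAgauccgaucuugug
miR-100-5p: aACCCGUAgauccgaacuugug
miR-99b-5p: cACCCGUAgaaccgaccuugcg
miR-125b-1-3p: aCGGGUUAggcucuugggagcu
miR-125b-2-3p: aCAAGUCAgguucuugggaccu

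miR-125a-5p and miR-125b-5p share the seed CCCUGAG and their first 13 bases, and 3 single-base edits turn one into the other. The seed ACCCGUA is common to miR-99a-5p, miR-99b-5p and miR-100-5p. Counted from the 5′ end, miR-99a-5p and miR-100-5p differ by the 1 substitution U16A, with the base of miR-99a-5p given first. miR-99b-5p differs from miR-99a-5p by 4, namely A1C, U11A, U16C and U21C. Among the mouse miRNAs of the array with a matched sequence, 1 further miRNA has either seed, miR-351-5p, which carries that of miR-125.

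In GRCm38.p6, mature miR-125b-5p is encoded on the plus strand both at chr9:41581940-41581961 (Mir125b-1) and at chr16:77646279-77646300 (Mir125b-2), and the array has 1 feature for both. Mir100, Mirlet7a-2 and Mir125b-1 stand within 50.6 kb inside the long non-coding RNA gene Mir100hg. Mir99a, Mirlet7c-1 and Mir125b-2 take up 47.4 kb, and no other annotated gene covers all 3. Mir99b, Mirlet7e and Mir125a are packed into 0.683 kb of chromosome 17, within the span of the protein-coding gene Spaca6. miR-99a-5p lies at chr16:77598940-77598961, miR-100-5p at chr9:41531437-41531458, miR-99b-5p at chr17:17830194-17830215 and miR-125a-5p at chr17:17830817-17830840.

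The signal of a miRNA is its total gene signal, an intensity on a linear scale, with an error and a detection call from the scanner software. Every undetected feature was deposited with 1 fixed signal and has no measured level, only an upper bound, for which the lowest detected signal of the array is used below (4.87, 4.39 and 4.41 in isolations 1, 2 and 3). This bound comes from other features, and that of a given feature may differ. Detection calls were fewer in isolation 1, with 86 mouse miRNAs against 179 and 164. The mean log2 and normalized signals of miR-125b-5p are given with and without it. Differences from isolation 1, and the search for similar patterns across isolations, have no version without it. Of the markers of mesenchymal and osteoblast lineage cells, 4, 7 and 7 of the 8 on the array were detected in isolations 1, 2 and 3. Their summed signals were 46.0, 1000.0 and 782.9, and miR-143-3p was not detected in any isolation. Only 1 of 19 markers of blood cells, liver, neurons, epithelium and muscle was detected, the muscle miRNA miR-206-3p, with signals of 7.71, 37.4 and 21.7, and its part in the results was not tested. The 7 negative control features were not detected on any array.

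Of the 7 members, 1 was detected in isolation 1 and 4 in each of isolations 2 and 3, and 1 was detected in all 3. For comparison, the shares of all mouse miRNAs were 7.97%, 16.6% and 15.2% in isolations 1, 2 and 3, 7.78% in all 3 and 16.7% in at least 1. The detected members were miR-125b-5p, in all isolations, and miR-99a-5p, miR-100-5p and miR-125a-5p, in isolations 2 and 3. The remaining 3, miR-99b-5p and both miR-125b 3p arms, were not detected in any.

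**Figure D1:**
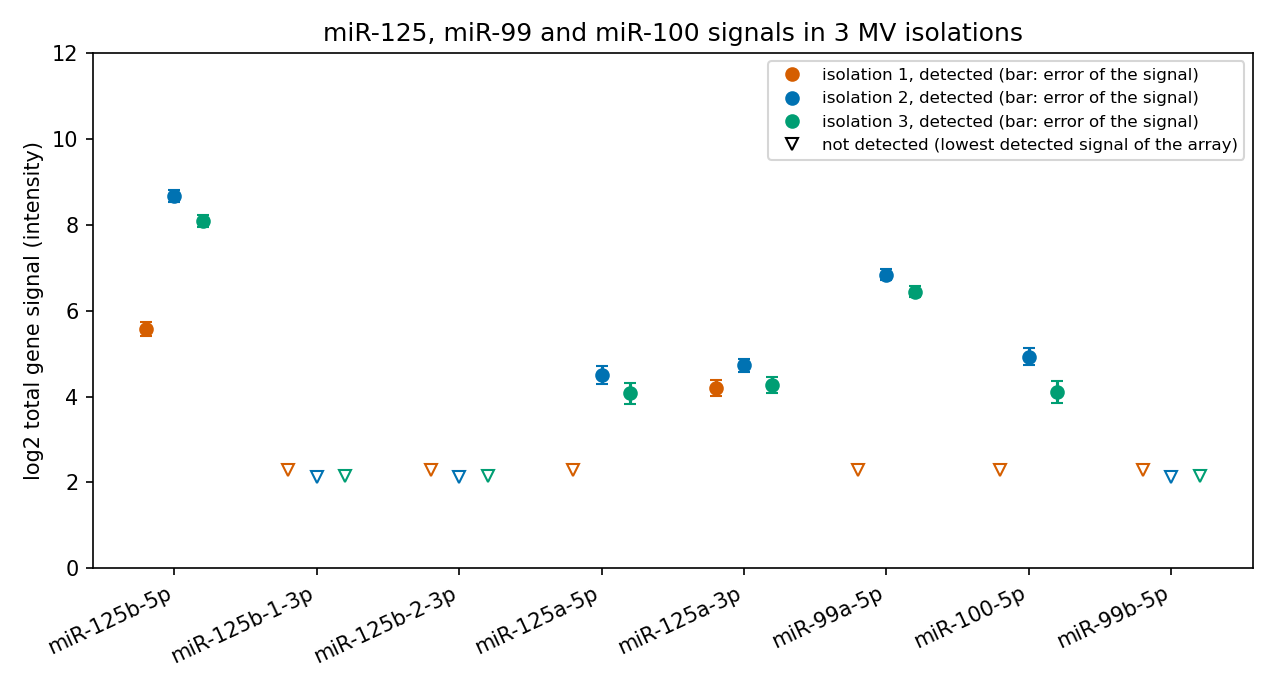
Log2 total gene signal (vertical axis) of the 7 members and of miR-125a-3p in isolations 1, 2 and 3 (colors). Points are detected signals with the deposited error as bar, and open triangles stand at the lowest detected signal of an array where a miRNA was not detected. miR-125b-5p has a point in each isolation, whereas miR-99a-5p, miR-100-5p and miR-125a-5p have none in isolation 1.

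miR-125b-5p had the highest signal of the members on each array. Isolations 1, 2 and 3 gave signals of 47.6 ± 5.35, 405.5 ± 38.0 and 271.0 ± 25.6 (± the deposited error). On the log2 scale the mean was 7.44 ± 1.64 (SD, n = 3), and 8.37 ± 0.41 (SD, n = 2) without isolation 1. Isolation 1 lay below the other isolations, and most of the spread rests on it. The deposited errors, which cover single arrays only, were 0.16, 0.14 and 0.14 log2 units.

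By mean log2 signal miR-125b-5p took place 20 of the 84 miRNAs detected in all isolations. The miRNA at place 19, miR-32-3p, had a mean of 7.45 ± 0.75 (SD, n = 3) and was the brighter of the pair in 1 of 3 isolations. The miRNA at place 21, let-7c-5p, had a mean of 7.17 ± 2.11 (SD, n = 3) and was brighter than miR-125b-5p in 1 of 3. The means of these neighbors did not differ from that of miR-125b-5p beyond their spread across isolations, and the order within arrays changed between isolations. Since probes respond unequally, places, and all differences between miRNAs, arms or paralogues given below, are those of signals rather than of amounts of RNA. With 3 arrays an exact sign-flip test could not give a two-sided p below 0.25, and no order within arrays was tested.

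miR-99a-5p was second among the members, with signals of 114.1 ± 9.95 in isolation 2 and 87.1 ± 8.01 in isolation 3. miR-100-5p followed, with 30.5 ± 4.27 and 17.2 ± 2.98. miR-125a-5p had 22.7 ± 3.40 and 16.8 ± 2.96. The signals of miR-100-5p and miR-125a-5p in isolation 3 differed by less than either error, so these neighbors are not ordered there. The error was a larger part of the dimmer signals. The signal was 5.68 to 7.14 times its error for miR-100-5p and miR-125a-5p, 10.9 and 11.5 times for miR-99a-5p, and 8.90, 10.7 and 10.6 times for miR-125b-5p in isolations 1, 2 and 3.

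Within arrays, the places of miR-125b-5p among detected mouse miRNAs were 32 of 86, 15 of 179 and 17 of 164. The places of miR-99a-5p were 39 of 179 and 41 of 164. miR-100-5p was at 100 of 179 and 113 of 164, and miR-125a-5p at 117 of 179 and 114 of 164. In isolations 2 and 3 the places of miR-125b-5p, miR-99a-5p and miR-125a-5p were close, whereas miR-100-5p stood lower in isolation 3. These places are out of different totals. The fall in signal of miR-100-5p lay within 1 SD of the median over all miRNAs detected in both isolations. All detected members together made up 0.351%, 1.35% and 1.11% of the summed signal of detected mouse miRNAs in isolations 1, 2 and 3. miR-125b-5p alone gave 70.8% and 69.1% of the members' sum in isolations 2 and 3.

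The features for the paralogues of the miR-125 seed were far apart in signal. The log2 signal of miR-125b-5p exceeded that of miR-125a-5p by 4.16 ± 0.25 in isolation 2 and by 4.01 ± 0.29 in isolation 3 (± the combined error of both signals), with a mean of 4.08 ± 0.10 (SD, n = 2). In isolation 1 the difference was at least 3.29, with miR-125a-5p not detected. The signal of miR-125a-5p was 5.61% of that of miR-125b-5p in isolation 2 and 6.20% in isolation 3, a share that stayed within its errors while both signals were lower in isolation 3. These sequences share their first 13 bases, and the part of miR-125b-5p in the signal of the miR-125a-5p feature was not tested. The third miRNA with this seed, miR-351-5p, was not detected in any isolation.

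Among miR-99 and miR-100 the feature for miR-99a-5p was the brightest. Its log2 signal exceeded that of miR-100-5p by 1.91 ± 0.24 in isolation 2 and by 2.34 ± 0.28 in isolation 3, a mean of 2.12 ± 0.31 (SD, n = 2). The pair differs by 1 substitution, U16A, and neither was detected in isolation 1. miR-100-5p stood at 26.7% of the signal of miR-99a-5p in isolation 2 and at 19.8% in isolation 3. How much of one is read by the feature of the other was not tested.

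The third paralogue, miR-99b-5p, was below detection on every array. At the lowest detected signals, its feature could hold at most 3.85% of the signal of miR-99a-5p in isolation 2 and 5.06% in isolation 3. A feature that differs from miR-99a-5p by 4 substitutions therefore gave no detectable signal where that miRNA was read at 114.1.

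The features for the arms of miR-125b differed in detection. The 3p arms miR-125b-1-3p and miR-125b-2-3p differ from each other by 5 substitutions and both were undetected, although miR-125b-5p was the brightest member on all arrays. The log2 signal of the 5p arm was 3.29, 6.53 and 5.94 above the lowest detected signal in isolations 1, 2 and 3. Either 3p feature could thus hold at most 10.2%, 1.08% and 1.63% of the signal of miR-125b-5p. The hairpins of Mir125b-1 and Mir125a are shown to place these arms, with both mature arms of each in capitals (RefSeq, GRCm38.p6, plus strand).
Mir125b-1, chr9:41581926-41582002: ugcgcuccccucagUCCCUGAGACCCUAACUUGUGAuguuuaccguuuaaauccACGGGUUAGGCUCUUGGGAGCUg
Mir125a, chr17:17830812-17830879: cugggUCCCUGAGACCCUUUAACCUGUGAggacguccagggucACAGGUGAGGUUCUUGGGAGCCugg

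For miR-125a, features of both arms were detected. Its 3p arm, miR-125a-3p, is no member by the rule but a product of the same hairpin. It was detected in all 3 isolations, with signals of 18.4 ± 2.37, 26.4 ± 2.70 and 19.3 ± 2.40. In isolations 2 and 3 it was 0.22 ± 0.26 and 0.20 ± 0.31 log2 units above miR-125a-5p, which is within the combined errors. In isolation 1, where miR-125a-5p was not detected, it was at least 1.91 above. Across isolations the log2 signal of miR-125a-3p had an SD of 0.29 (n = 3), place 77 of 84 from the highest, whereas that of miR-125b-5p had place 13 with 1.64. This contrast rests on isolation 1, since without it the SDs (n = 2) were 0.32 for miR-125a-3p and 0.41 for miR-125b-5p.

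Detection of both arms was uncommon on these arrays. Of 384 pairs of features named as the 5p and the 3p arm of 1 miRNA, 98 had a detected arm in isolation 2. A pair needed the same name before the arm, so miR-125b is not among the 384. Both arms were detected for 8 of these 98, miR-125a among them, only the 5p arm for 54 and only the 3p arm for 36. In isolation 1 there were 47 such pairs, with both arms for 1, only 5p for 27 and only 3p for 19, the last with miR-125a. In isolation 3 there were 89, with both arms for 8, only 5p for 47 and only 3p for 34. Where both arms were detected, the 3p arm was the brighter for 1 of 1, 7 of 8 and 6 of 8 pairs in isolations 1, 2 and 3.

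The other products of the 3 clusters were looked at as a list, to see whether neighboring genes were detected alike. The list has 17 features, counting the members, their other arms and the let-7 miRNAs between them. In isolation 1, 4 of the 17 were detected, and 8 in each of isolations 2 and 3, the same number as in any. The shares of all mouse miRNAs were 7.97%, 16.6% and 15.2% in isolations 1, 2 and 3. The 5p arms supplied 7 of the 8 detected products, out of 8 on the list, and the 3p arms 1 of 9, which is miR-125a-3p. Among the pairs of arms above, isolation 2 had only the 5p arm for 54 and only the 3p arm for 36.

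In the Mir100 cluster, 2 of the 3 5p arms were detected in isolation 1 and all 3 in isolations 2 and 3. The Mir99a cluster gave the same counts. Both include the single miR-125b-5p feature, which cannot be assigned to either cluster, and miR-100-5p and miR-99a-5p were those missed in isolation 1. In the Mir99b cluster, 2 of the 3 5p arms were detected in isolations 2 and 3 (let-7e-5p and miR-125a-5p) and none in isolation 1. The let-7 miRNA of this cluster, let-7e-5p, had signals of 45.7 ± 5.17 in isolation 2 and 35.1 ± 4.45 in isolation 3. It was 1.01 ± 0.27 and 1.06 ± 0.31 log2 units above miR-125a-5p, while miR-99b-5p, encoded in the same 0.683 kb, was not detected.

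For the other clusters, let-7a-5p had signals of 10.9 ± 2.66, 202.9 ± 16.8 and 148.5 ± 12.6 in isolations 1, 2 and 3. Those of let-7c-5p were 26.6 ± 3.61, 373.0 ± 31.6 and 300.1 ± 26.1. let-7a-5p and let-7c-5p are also made from genes outside these clusters, so their signals cannot be assigned to the clusters. The log2 signal of let-7c-5p was 1.71 ± 0.18 and 1.78 ± 0.18 above that of miR-99a-5p in isolations 2 and 3. let-7a-5p exceeded miR-100-5p by 2.74 ± 0.23 and 3.11 ± 0.28.

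**Figure D2:**
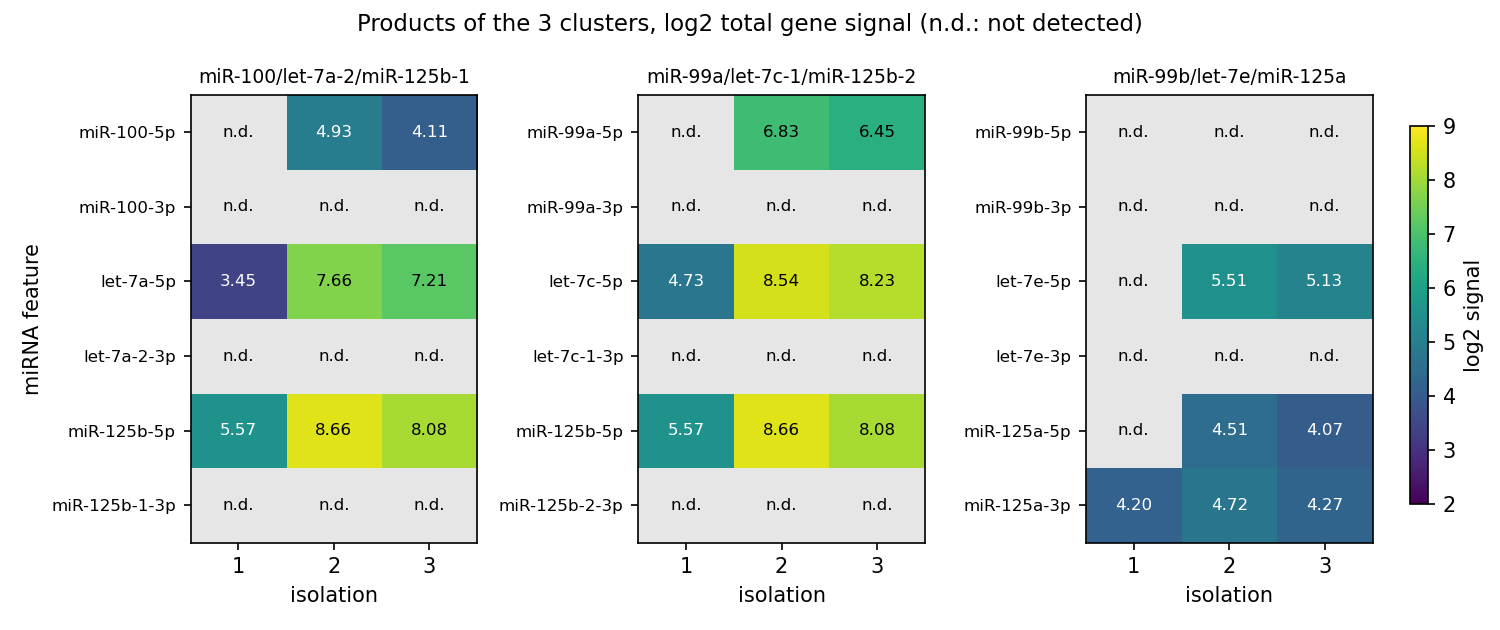
Log2 total gene signal (color and printed value) of the products of each cluster (rows, 5p and 3p arms in turn) in isolations 1, 2 and 3 (columns), with gray for not detected. miR-125b-5p is shown in both clusters that encode it, and the 3p rows are gray except for miR-125a-3p.

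How the members varied between isolations was then compared with all miRNAs on the same arrays. miR-125b-5p was higher in isolation 2 than in isolation 1 by 3.09 ± 0.21 log2 units (± the combined deposited errors), an 8.52-fold difference. The 84 miRNAs detected in all isolations had a median of 1.37 and ranged from -0.38 to 4.50, and 82 of the 84 were above 0. miR-125b-5p was at place 12 of 84, with let-7a-5p at place 4 (4.22 ± 0.37) and let-7c-5p at place 5 (3.81 ± 0.23). In contrast, miR-125a-3p was at place 76, with a difference of 0.52 ± 0.24. From isolation 1 to isolation 3 the order was similar, with miR-125b-5p at place 11 (2.51 ± 0.21) and miR-125a-3p at place 82 (0.07 ± 0.26).

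For the members missed in isolation 1 only a lower bound can be given. miR-99a-5p in isolation 2 was 23.4-fold, or 4.55 log2 units, above the lowest detected signal of isolation 1, which gives the bound. This bound is not resolved from the highest difference measured for the 84 miRNAs. It lay above that difference by less than the log2 error of miR-99a-5p in isolation 2 (0.126). The 84 miRNAs were all detected in isolation 1, which limits how large their differences can be. Of the 80 miRNAs missed in isolation 1 alone, 3 had a bound above that highest difference. By signal, miR-99a-5p was at place 2 of these 80 in isolation 2 and at place 3 in isolation 3. miR-100-5p was at least 6.25-fold and miR-125a-5p at least 4.66-fold higher in isolation 2, at places 25 and 36 of the 80.

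Isolations 2 and 3 were close to each other. From isolation 2 to isolation 3 the log2 signal fell by 0.58 (error 0.19) for miR-125b-5p, by 0.39 (error 0.18) for miR-99a-5p, by 0.82 (error 0.32) for miR-100-5p and by 0.44 (error 0.33) for miR-125a-5p. Lower signals in isolation 3 were general, since 150 of the 164 miRNAs detected in both were lower there, with a median of -0.39 and an SD of 0.44. Each of the 4 members lay within 1 SD of this median. miR-99a-5p was at place 82 of 164 from the highest difference and miR-100-5p, the lowest of the members, at place 133.

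**Figure D3:**
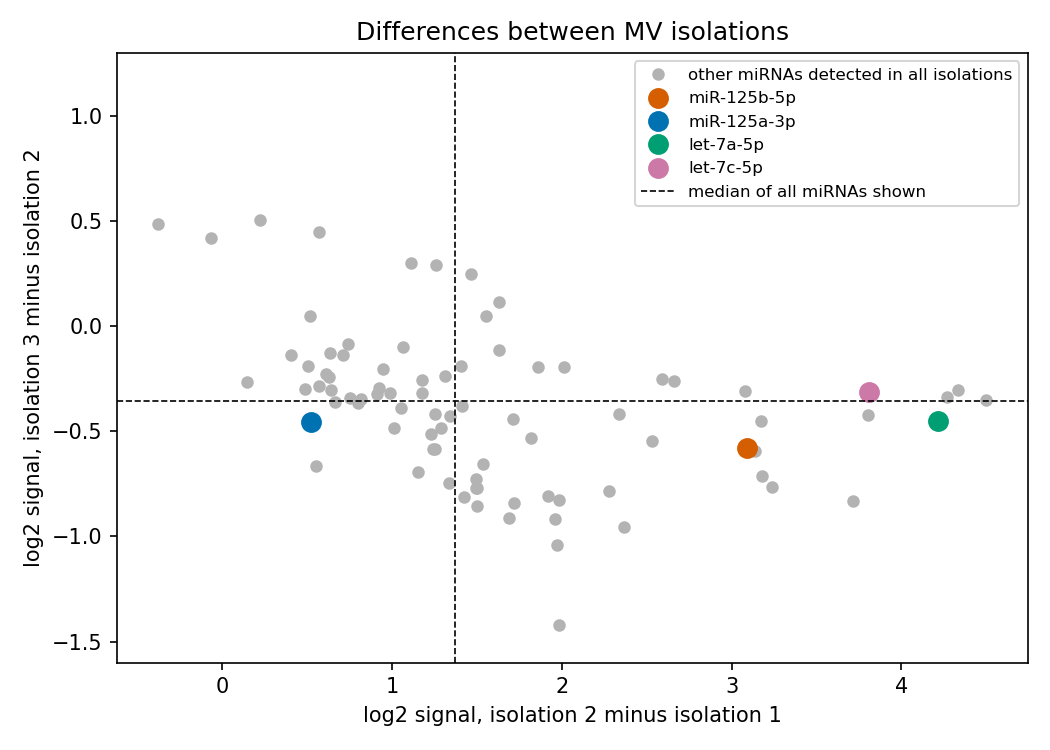
Differences in log2 signal between isolations for the 84 miRNAs detected in all of them (1 point each), isolation 2 minus 1 on the horizontal and isolation 3 minus 2 on the vertical axis, with medians as dashed lines. miR-125b-5p (3.09, -0.58) and both let-7 miRNAs stand to the right of the median of 1.37, and miR-125a-3p (0.52, -0.46) stands to its left.

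When each array was shifted by its own 90th percentile, taken over the 84 shared miRNAs, a step that removes part of the difference between arrays, miR-125b-5p was at -2.50, -0.89 and -0.93 in isolations 1, 2 and 3. The mean was -1.44 ± 0.92 (SD, n = 3), and -0.91 ± 0.028 (SD, n = 2) without isolation 1, which remained 1.61 log2 units below isolation 2. The shifted means of miR-99a-5p (-2.65 ± 0.11) and miR-100-5p (-4.77 ± 0.20; SD, n = 2 each) rest on isolations 2 and 3 alone, as do the values of miR-125a-5p, -5.05 and -4.94.

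The miRNAs most like miR-125b-5p across isolations were sought among the other 83 detected in all 3, by the Euclidean distance between their differences (isolation 2 minus 1, and 3 minus 2, in log2 units). The nearest were miR-5100 (distance 0.050), miR-214-3p (0.154) and the feature listed as mmu-miR-720_v18.0 (0.160), against a median distance of 1.76. miR-3963 followed at 0.237. The distances of the nearest 3 are below the errors of the differences of miR-125b-5p itself (0.21 and 0.19), so their order is not resolved. miR-5100 had signals of 94.3, 830.6 and 550.6, and miR-214-3p, a miRNA of mesenchymal cells, 15.3, 137.9 and 100.8. This likeness rests on 3 arrays and on the differences between isolations of 1 condition.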

How the data were processed

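MV RNA of 3 isolations was read on 1 single-color (Cy3) Agilent mouse miRNA array each. The authors deposited, per feature, the total gene signal (an intensity on a linear scale, from Agilent Feature Extraction 10.10.1.1) with its error, and a control type and detection call, with no normalization between arrays. Undetected features carry a signal of 0.1 and an error of 1. Groups and replicate numbers are from the sample titles, and all arrays belong to 1 group. The labels' source name calls every sample replicate 1. Of 9 mesenchymal and osteoblast markers, miR-145-5p was not matched by name.

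Of 1157 features, 21 controls and 57 viral miRNAs were left out. Log2 signals were compared per isolation. The error of a log2 difference was propagated from the deposited errors. For normalized values, the 90th percentile over miRNAs detected in all isolations was subtracted from log2 signals. The study's supplement names the same percentile in GeneSpring GX, but the features it was taken over are not given in the sources used here. The values normalized here are not on the study's scale. For miR-125b-5p, the value listed in the study's supplement is close to the 5.45 obtained here when all features entered the percentile. No groups could be compared and no test was run. The members, lists and named miRNAs (members, other cluster products, miRNAs of the same seed, neighbors in signal order and the 3 nearest patterns) were chosen with earlier results of these data known. Alternatives were detection over 3 or 10 times the error, numbers of arrays, other shifts, quantile normalization, other backgrounds and each isolation left out. Sequences and gene neighbors are from RefSeq (GRCm38.p6). No assembly is named in the array tables. The functions were tested on simulated data. Calculations used Python 3.11.15, numpy 2.4.6, pandas 2.3.3 and matplotlib 3.10.9. The number of arrays, 3, limits the precision.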

Additional observations from a re-analysis of the deposited data

How the results depend on the processing

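Of the 7 members 4 were detected, and of the 17 cluster products 8. A signal over 10 times its error left 2 and 4, and detection in all 3 isolations left 1 and 4. For comparison, 16.7% of all mouse miRNAs were detected in at least 1 isolation and 7.78% in all 3. The share of all mouse miRNAs over 10 times the error was not computed. With each isolation left out the counts of members and products were 4 and 8 each time, which was fixed because every detected product was detected in both isolations 2 and 3. The normalized value of miR-125b-5p (-1.44) and the median over the other detected members (-4.77) moved with the zero of the scale. They were 0.23 and -3.18 with the 75th percentile and 1.60 and -1.79 with the median of the same miRNAs, 5.58 and 0.070 when all mouse miRNAs entered the 90th percentile, 5.45 and -0.13 when all features did, 7.48 and 4.06 after quantile normalization, and 7.44 and 4.52 with no shift. With the lowest detected signal in place of leaving out isolation 1, the median over the other members was -5.11. With each isolation left out, the value of miR-125b-5p ranged from -1.72 to 0.15 and that of the other members from -4.91 to -3.71. The highest values came without isolation 1, where more miRNAs enter the percentile and the low value of miR-125b-5p (-2.50) drops out. Over the 84 shared miRNAs, the mean of miR-125b-5p without isolation 1 was -0.91. The difference of miR-125b-5p between isolations 2 and 1 (3.09) was 1.61 after the percentile shift and 1.56 after quantile normalization. Its excess over the median of the 84 miRNAs detected in all isolations (1.72) was 1.93 against the 31 miRNAs with a signal over 10 times the error in both arrays, a set that does not hold miR-125b-5p itself. The difference between miR-125b-5p and miR-125a-5p (4.08) was 4.01 to 4.16 with each isolation left out. It was measured in isolations 2 and 3 only, so these are the values of the single arrays and no check of stability. On the linear scale the difference was 9.95 times its combined error. The place of miR-125b-5p, 20, was 17 to 22 with each isolation left out and 19 or 20 otherwise. No paired analysis was possible because there was only 1 group. Differences among undetected features cannot be resolved.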
